A study of Mus musculus with 3 samples.

Results

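This account covers 41 interferon-stimulated genes outside the Oas, Ifit and Gbp families, chosen by gene symbol from the gene and transcript tables, out of 55536 genes measured. All 41 symbols were found, each with counts in every library. RNA bound to chromatin, the nuclear fraction that holds transcripts still being made, was sequenced in full after removal of ribosomal RNA. It came from macrophages grown from the bone marrow of C57BL/6J mice. All cells had been exposed for 25 min to Lipid A at 100 ng/ml, the part of bacterial lipopolysaccharide that is sensed by TLR4, and no unstimulated cells are analysed here. The 3 libraries form 1 group and are labelled biological replicates under 1 donor label. They differ in the labelled amount of RNA, which was 250 ng for replicate 2, 500 ng for replicate 3 and 1000 ng for replicate 1. The labels do not say whether separate animals or cultures were used, so p-values cannot be read as measuring a spread between animals or cultures.

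Type I interferons bind a receptor that activates the kinases JAK1 and TYK2, which phosphorylate STAT proteins, STAT2 among them. STAT2 and IRF9 are part of ISGF3, a complex that binds the interferon-stimulated response element (ISRE) in the promoters of many antiviral genes. In macrophages, TLR4 also leads through TBK1 and IRF3 to interferon-beta, so the genes described here are classic targets of the response to bacterial products, and some are also bound by IRF factors without interferon. Their products sense viral nucleic acid, degrade or block it, attach ISG15 or ubiquitin to proteins, or attack the vacuoles of intracellular microbes.

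The genes' promoters were examined first, in RefSeq windows from 250 bases before to 50 bases after each start (build GRCm38.p6). A window was found for 30 of the 41 genes. The core of the ISRE, searched as GAAANNGAAA on both strands, was present in 14 of these 30 genes, or 46.7%, against 3.99% of 27025 genes with a window. Before the start alone the shares were 33.3% of these genes and 3.46% of all. The NF-kB motif GGANTTTCC was present in 1 of the 30 (3.33%), against 1.45% of all. The AP-1 motif TGANTCA was present in 6 of the 30 (20.0%), against 8.97% of all. These 3 motifs were counted separately. Windows of one gene with several starts can overlap. The stretches below lie wholly before the annotated starts and show how the core occurs in 7 of the 14 genes. Each is written 5′ to 3′ on the gene's own strand, the core or run of overlapping cores is in capitals, and up to 20 bases follow on each side. A core on the other strand reads TTTC at both ends.
Isg15 (chr4:156200855-156200916, minus strand): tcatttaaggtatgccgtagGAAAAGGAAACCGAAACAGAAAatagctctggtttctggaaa
Bst2 (chr8:71537567-71537622, minus strand): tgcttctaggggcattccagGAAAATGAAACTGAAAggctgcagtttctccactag
Rsad2 (chr12:26456543-26456592, minus strand): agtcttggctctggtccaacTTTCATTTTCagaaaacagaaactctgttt
Slfn8 (chr11:83020829-83020878, minus strand): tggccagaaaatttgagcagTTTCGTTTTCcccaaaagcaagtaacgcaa
Stat2 (chr10:128270256-128270305, plus strand): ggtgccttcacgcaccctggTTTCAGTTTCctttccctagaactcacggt
Igtp (chr11:58199502-58199551, plus strand): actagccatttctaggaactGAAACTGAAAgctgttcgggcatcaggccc
Trim30a (chr7:104465200-104465249, minus strand): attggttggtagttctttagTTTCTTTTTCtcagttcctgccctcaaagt

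Isg15, which encodes a ubiquitin-like protein, held 3 overlapping cores, the first starting 78 bases before its start. Bst2, Irgm1 and Trim21 held 2 overlapping cores each, and the other 10 genes had 1 core in a window. The first core began 130 bases before the start in Bst2, 120 in Rsad2, 222 in Stat2 and 34 in Igtp. In Ddx58, Eif2ak2, Ifih1 and Trim21 the core lay just after the start, as did the core in the other window of Trim30a, not shown above. A match is a description of letters, and binding was not measured. No window was found for Mx1, Mx2, Usp18, Dhx58, Ifi204, Parp9, Parp14, Rtp4, Zbp1, Iigp1 and Tor3a.

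**Figure D1:**
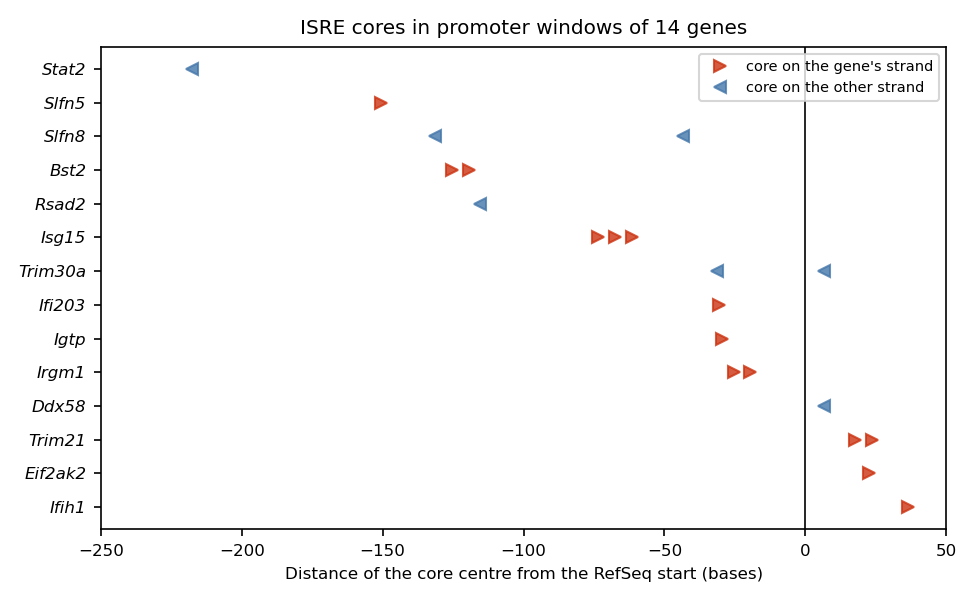
Position of each ISRE core (triangle) in the promoter windows of 14 genes, in bases from the RefSeq start (vertical line), by strand. The first core base lies from 222 bases before the start in Stat2 to 32 bases after it in Ifih1. Slfn8 and Trim30a appear in windows of 2 starts.

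The libraries held 19162053, 19147923 and 13318787 expected counts on genes at 250, 500 and 1000 ng, so that 0 counts still allows up to 0.157, 0.157 and 0.225 CPM (counts as a rate of the library total), counting error only. Genes of the ribosomal DNA locus took 27.2%, 23.2% and 8.59% of them in the same order. All 8 macrophage markers reached 1 TPM (a level per gene length, as a rate of the library), with summed levels of 1364, 1542 and 2204 TPM. Of 28 markers of other cell types 2 reached 1 TPM, 10 had no count, and the summed levels were 9.88, 9.24 and 14.3 TPM. Within this list the stromal markers Col1a1 (25, 30 and 0 counts), Col1a2 (17, 17 and 0) and Pdgfrb (2, 4 and 0) had no count at 1000 ng, while Ccr9 had 7.66, 8.84 and 14.5 normalised CPM. The phiX spike-in took 0.357%, 0.308% and 1.53% of all counts. The part of these differences in the results was not tested. On the TPM scale the median gene was 0.29 log2 units higher at 1000 ng than at 250 ng. Libraries are therefore compared below on CPM normalised by the TMM method, which puts the median change per doubling of RNA amount at -0.01.

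Chromatin RNA of all 41 genes was detected at 1 TPM or more, a level reached by 32.9% of the 46615 genes of at least 300 nt. With the deposited TPM, which are scaled over all entries, 40 reached it and Igtp had 0.953 TPM. A mean of 100 TPM or more was reached by 18 of the 41, against 2.95% of those genes. The median was 94.0 TPM over the 41 genes and 11.5 TPM over the 15332 genes at 1 TPM or more. With no unstimulated cells, these levels do not show how much of this RNA was made in response to Lipid A. In such bulk RNA, fewer cells that transcribe a gene and less RNA per cell cannot be told apart.

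The highest levels belonged to genes of ubiquitin and ADP-ribose transfer, a nuclear body protein and DNA sensors. Trim25, a ubiquitin ligase that acts on the RNA sensor RIG-I, had 485, 420 and 408 TPM at 250, 500 and 1000 ng (437 ± 41.4, SD, n = 3). Parp14, a mono-ADP-ribosyltransferase, had 281, 342 and 642 TPM (422 ± 194). Sp100, a component of PML nuclear bodies, had 265, 363 and 514 TPM (380 ± 125). The order of these 3 is not settled: their means differ by less than the SD of Parp14 or Sp100, and at 1000 ng both Parp14 and Sp100 were above Trim25. Ifi204, a member of the HIN-200 DNA sensors, had 216, 239 and 493 TPM, and Slfn2, a schlafen family protein, 208, 224 and 421 TPM. Stat2, the ISGF3 subunit, had 221, 271 and 255 TPM. These were followed by Ifi203 with 99.7, 167 and 427 TPM and Mx1 with 122, 194 and 298 TPM. Ifi203 and Mx1 were below Stat2 at 250 and 500 ng and above it at 1000 ng.

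The lowest levels were those of Igtp, Isg20, Isg15 and Ifi47. Igtp, an immunity-related GTPase that acts at pathogen vacuoles, had 1.89, 2.58 and 3.48 TPM. Isg20, an exonuclease that degrades viral RNA, had 3.48, 1.93 and 6.62 TPM. Isg15 had 19, 37 and 32 counts, or 7.43 ± 3.07 TPM. Ifi47, another GTPase of this family, had 4.83, 6.83 and 18.2 TPM. So Isg15, whose promoter stretch above carries the longest run of cores, was the third lowest of the 41 in mean level, although at 500 ng Ifi47 and Ifi44 were also below it. Igtp shares 162 nt of exon, 8.0% of its exons, on the same strand with Irgm2. Irgm2 had 489.1 counts over the libraries against 105.9 for Igtp. Reads of that stretch may be assigned to either gene, but the posterior SD deposited with the Igtp counts was at most 1.36% of the count.

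By role, the median level was 131 TPM over 8 nucleic acid sensors, from 25.7 TPM for Zbp1 to Ifi204. It was 160 TPM over 3 schlafen genes and 97.3 TPM over the nuclear proteins Sp100, Sp110 and Daxx with Tor3a, an endoplasmic reticulum ATPase. It was 85.9 TPM over 3 PARP genes and Dtx3l, and 83.2 TPM over 8 genes of signalling, ISG15 transfer and the TRIM family. The 10 direct antiviral effectors had a median of 37.9 TPM, from Isg20 to Mx1. The 4 immunity-related GTPases were lowest with a median of 13.9 TPM and a maximum of 19.8 TPM in Irgm1. No test was made between these role groups.

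**Figure D2:**
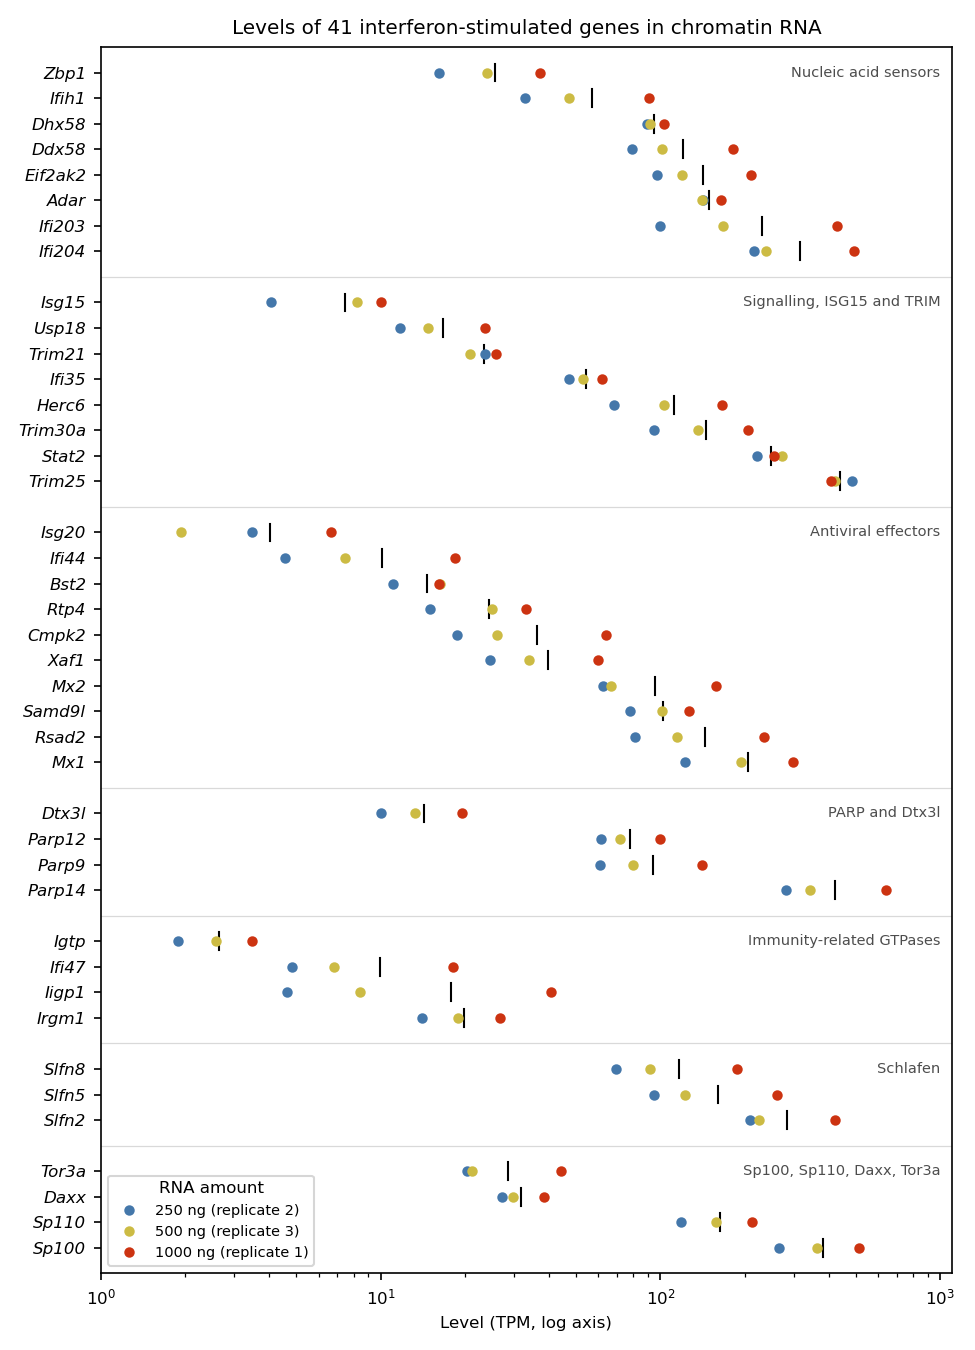
Level in TPM (log axis) of each of the 41 genes, by role, with 1 point per library and a black tick at the mean. Levels run from 2.65 TPM in Igtp to 437 TPM in Trim25, and most genes are highest in the 1000 ng library.

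Relative spread between the libraries ran from a coefficient of variation of 7.49% in Dhx58, the RIG-I-like receptor LGP2, to 111% in Iigp1, an immunity-related GTPase. After Iigp1 the widest were Ifi203 with 74.7%, Ifi47 with 72.4%, Ifi44 with 72.2% and Cmpk2 with 66.7%. Adar, which edits double-stranded RNA, Trim25 and Stat2 stayed near 10%, with 9.20%, 9.47% and 10.2%. These are TPM values and include the shift of the median gene given above.

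The labelled RNA amount was the one recorded difference between the libraries, and 13 of the 41 genes rose with it and none fell. Iigp1, the HIN-200 gene Ifi203, Ifi44 and the neighbours Cmpk2 and Rsad2 had the 5 largest of these increases in the edgeR fit. The change was fitted for 13993 genes with edgeR's quasi-likelihood test as a log2 change per doubling of RNA, and an adjusted p (Benjamini-Hochberg) under 0.05 was taken as the threshold. All 41 passed the count filter. The 13 are 31.7% of the 41, beside 4.52% of all genes tested that rose and 2.85% that fell. At an unadjusted p under 0.05, 24 of the 41 were higher and 0 lower by edgeR, 20 higher and 0 lower by DESeq2, and 21 higher and 1 lower (Trim25) with the kallisto-type counts. None was lower at an adjusted p under 0.05 in any of the 3. The share of all genes at an unadjusted p under 0.05 is not given, so the unadjusted counts here and below lack a background. Iigp1, Ifi203, Cmpk2, Rsad2 and Ifih1 also passed with DESeq2 and with the kallisto-type counts, a second set of transcript estimates summed per gene. The median change was 0.38 over the 41 and -0.01 over all genes tested, and 35 of the 41 had a positive value, against 48.6% of all genes. Normalised CPM increased in the order of RNA amount in 30 of the 41, against 24.3% of all genes. The fit leaves 1 residual degree of freedom, so p-values and SEs rest largely on variation pooled over genes, not on each gene's own spread. Each SE is the size of the change divided by the square root of the F statistic. RNA amount, replicate and whatever else differed between these 3 libraries cannot be told apart.

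The increases among immunity-related GTPases were uneven. Iigp1 had 4.71, 8.35 and 28.4 normalised CPM at 250, 500 and 1000 ng, a change of 1.32 ± 0.18 log2 units per doubling (SE; adjusted p = 1.4e-05, edgeR). Its 1000 ng library stood far above the other two, and the change between 250 and 500 ng alone was 0.82 per doubling. Ifi47 had 3.35, 3.90 and 8.27 normalised CPM and missed the threshold (0.66 ± 0.22, adjusted p = 0.0595, edgeR). Irgm1 and Igtp each had a value of 0.26 per doubling and did not pass the test.

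Among the nucleic acid sensors 3 of 8 passed. Ifi203 had 133, 207 and 440 normalised CPM (0.86 ± 0.13 per doubling, adjusted p = 3.0e-05, edgeR), and each step up in amount was matched by a higher value. Its neighbour Ifi204, transcribed in the same direction 175729 nt away from start to start on chromosome 1, had 199, 203 and 341 normalised CPM (0.39 ± 0.13, adjusted p = 0.0538). Ifi203 overlaps Mndal, a gene of the same family, by 37 nt of exon on the same strand, and Mndal had 9764.2 counts in all against 12543.8 for Ifi203. Ifih1, which encodes the RNA sensor MDA5, had 58.0, 79.6 and 119 normalised CPM (0.52 ± 0.13, adjusted p = 0.0129). Zbp1, a sensor of Z-form nucleic acid, had 18.5, 25.1 and 36.4 normalised CPM (0.49 ± 0.15, adjusted p = 0.0380), and did not pass with DESeq2 (adjusted p = 0.125) or the kallisto-type counts (adjusted p = 0.0702). The sensors RIG-I (Ddx58) and PKR (Eif2ak2) had 0.35 and 0.32 per doubling, LGP2 (Dhx58) had -0.03 and Adar -0.15, and none of these 4 passed. Whether Ifih1 differed from Ddx58 or Dhx58 was not tested.

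Of the 10 antiviral effectors 4 passed. Ifi44 had 6.02, 9.50 and 20.9 normalised CPM (0.90 ± 0.18, adjusted p = 0.00174, edgeR), but with the kallisto-type counts its change was 0.49 and did not pass (adjusted p = 0.112). Cmpk2, a mitochondrial nucleotide kinase, had 27.8, 33.8 and 73.6 normalised CPM (0.71 ± 0.14, adjusted p = 0.00142). Rsad2, or viperin, an enzyme that makes a chain-terminating nucleotide, had 152, 199 and 341 normalised CPM (0.58 ± 0.13, adjusted p = 0.00316). Cmpk2 and Rsad2 lie back to back on chromosome 12 with 12752 nt between their starts, and both were highest at 1000 ng. Mx1, a dynamin-like GTPase, had 103, 127 and 180 normalised CPM (0.40 ± 0.13, adjusted p = 0.0474), close to the threshold, and did not pass with DESeq2 (adjusted p = 0.108). Its paralogue Mx2, 72401 nt away from start to start on chromosome 16, had 50.1, 51.5 and 88.7 normalised CPM (0.41 ± 0.14, adjusted p = 0.0545). The fitted changes of Mx1 and Mx2 differ by far less than their errors although they fall on opposite sides of the threshold. The remaining effectors, Xaf1, Rtp4, Isg20, Samd9l and the virus tether Bst2, had values from 0.12 to 0.41 per doubling.

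Of the 3 schlafen genes 2 passed. Slfn8 had 115, 135 and 231 normalised CPM (0.50 ± 0.13, adjusted p = 0.0122, edgeR) and Slfn5 had 226, 255 and 435 (0.47 ± 0.13, adjusted p = 0.0179). In both the difference was mostly between the 500 and 1000 ng libraries. Slfn5 did not pass with DESeq2 (adjusted p = 0.0501), nor did either with the kallisto-type counts (adjusted p = 0.0820 for Slfn8 and 0.112 for Slfn5). Slfn2, in the same cluster on chromosome 11, had 154, 153 and 243 normalised CPM (0.33 ± 0.13, adjusted p = 0.104).

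Of the PARP group Parp14 passed, with 547, 680 and 1032 normalised CPM (0.46 ± 0.13, adjusted p = 0.0273, edgeR), though not with the kallisto-type counts (adjusted p = 0.0766). Parp9 and Dtx3l, whose proteins form a complex, are divergent genes with starts 681 nt apart that share 458 nt of exon on opposite strands. Parp9 had 68.1, 83.9 and 116 normalised CPM (0.38 ± 0.13, adjusted p = 0.0664) and Dtx3l had 24.4, 31.0 and 36.5 (0.29 ± 0.15, adjusted p = 0.231). In level, corrected for length, Parp9 had 94.0 ± 41.9 TPM and Dtx3l 14.3 ± 4.86 TPM (SD, n = 3), and Parp9 was above Dtx3l in each library. No label or header states whether counting used strand, so reads of the shared stretch may be assigned to either gene.

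In the group of signalling, ISG15 transfer and TRIM genes 2 of 8 passed. Herc6, which attaches ISG15 to proteins in mice, had 103, 152 and 192 normalised CPM (0.45 ± 0.13, adjusted p = 0.0290, edgeR). Trim30a had 147, 205 and 262 normalised CPM (0.42 ± 0.13, adjusted p = 0.0401). Isg15 itself had 1.08, 2.03 and 2.19 normalised CPM (0.49 ± 0.28, adjusted p = 0.297), the same fitted value as Zbp1 with a larger SE. Usp18, which removes ISG15 and restrains the receptor, had 0.10 per doubling and Ifi35 0.03. Trim25, Stat2 and Trim21, the cytosolic antibody receptor, had the values -0.22, -0.07 and -0.09, and none of these passed. Stat2 had 235, 302 and 213 normalised CPM, highest at 500 ng. None of Sp100, Sp110, Daxx and Tor3a passed, with values from -0.09 to 0.29 (unadjusted p under 0.05 in 2 of the 4 by edgeR and in 0 by DESeq2). Herc6 and Trim30a did not pass with DESeq2 (adjusted p = 0.0603 and 0.0806).

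**Figure D3:**
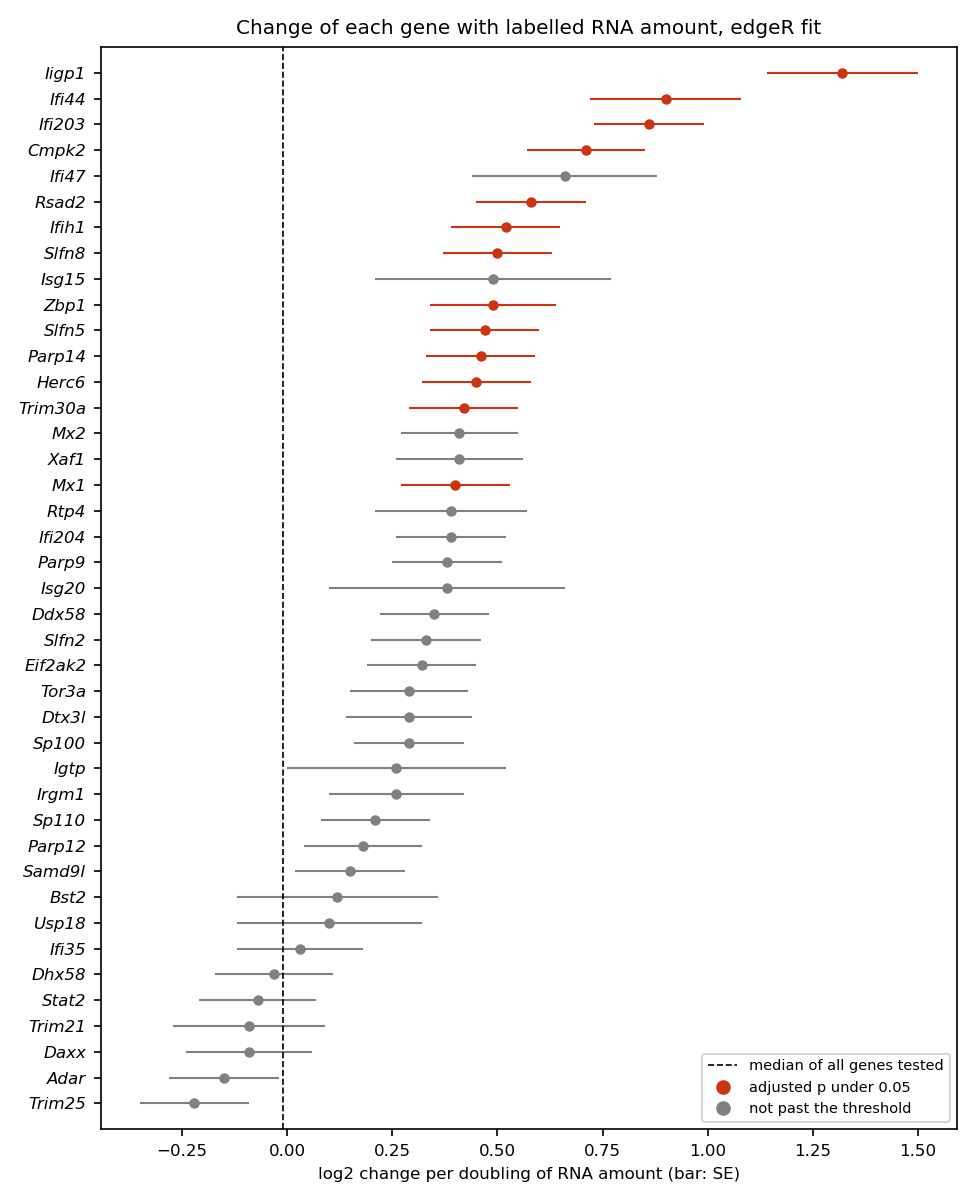
Fitted log2 change per doubling of RNA amount for each of the 41 genes (point, with its SE as a bar), from the edgeR fit over 13993 genes. The 13 genes past the threshold are red and lie between 0.40 and 1.32; the dashed line marks the median of all genes tested, -0.01.

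**Figure D4:**
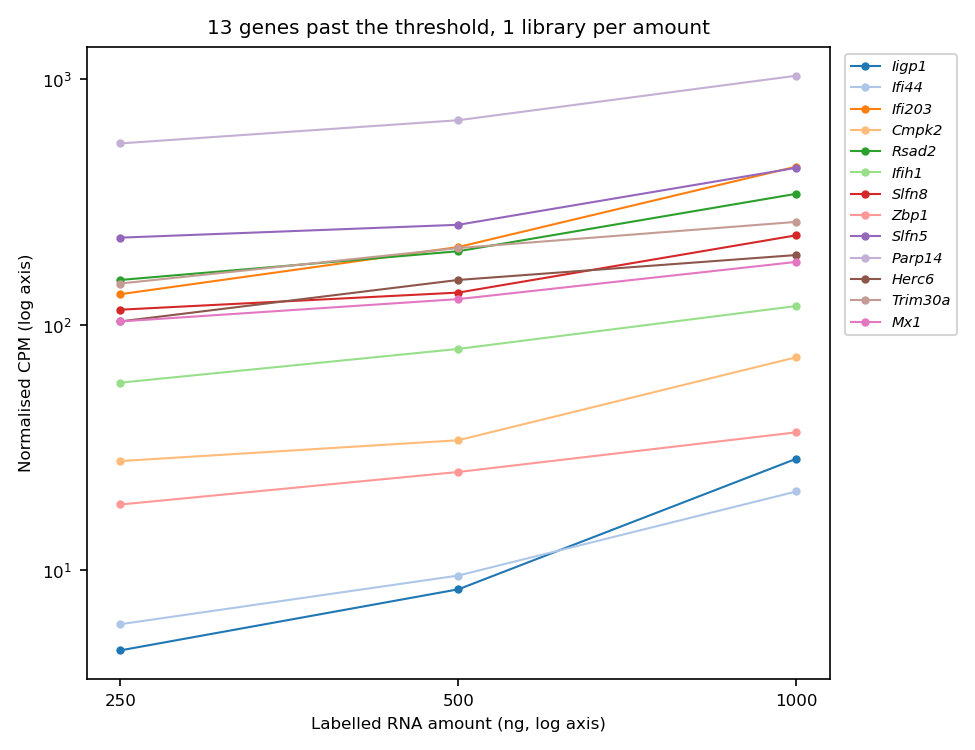
Normalised CPM (log axis) against labelled RNA amount (log axis) of the 13 genes past the threshold, with 1 library per amount. All 13 lines rise at both steps, most steeply Iigp1, which reaches 28.4 at 1000 ng.

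Leaving out the 1000 ng library, which also has the lowest share of ribosomal locus counts, left 2 libraries and no test. All 13 genes were still higher at 500 than at 250 ng, but the change per doubling was smaller by over 1.5 times in 4 of them: 0.82 in Iigp1, 0.29 in Cmpk2, 0.23 in Slfn8 and 0.18 in Slfn5. Without the 250 ng library it was larger by over 1.5 times in Cmpk2 (1.12), Slfn5 (0.77) and Slfn8 (0.77). Over the 41 genes the median was 0.29 between 250 and 500 ng, with 37 positive. It was 0.35 between 500 and 1000 ng, with 32 positive. The part of the ribosomal locus share in these differences was not tested. In a fit without those genes 12 of the 41 passed (901 of all genes, higher and lower together). That fit cannot test it, because it leaves the counts of all other genes as they are.

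Other genes of the pathway were measured in the same fit. Of 17 genes of interferon production, its receptor and downstream signalling, 13 reached 1 TPM and none of these 13 passed the edgeR test, with a median of 0.04 per doubling. At an unadjusted p under 0.05, 2 of the 13 were higher by edgeR and 1 by DESeq2, and at an adjusted p under 0.05 DESeq2 also had 0. The values per doubling were 0.17 for Irf7 and -0.01 for Irf9. Ifnb1, the gene of interferon-beta, had 0 counts in each library, as had Ifna1, Ifna2 and Ifna4. Of 20 genes of the Oas, Ifit and Gbp families and Cxcl10, 12 of the 18 tested rose and none fell, with a median of 0.79. Of all genes tested 4.52% rose. The 12 were Ifit and Gbp genes and Cxcl10, and no Oas gene passed, with values from 0.02 to 0.33. With DESeq2 10 of 20 rose and with the kallisto-type counts 9 of 19. DESeq2 called 370 of all genes and the kallisto-type fit 369, higher and lower together, against 1032 by edgeR. The share of all genes that rose is not given for DESeq2 or the kallisto-type fit. None of the 8 macrophage markers passed, nor did the 2 tested markers of other cells. At an unadjusted p under 0.05 edgeR had 1 marker higher in each list, and DESeq2 had 1 macrophage marker higher and 1 marker of other cells lower. At an adjusted p under 0.05 DESeq2 also had 0 in both lists.

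Of the 14 genes with an ISRE core in their window 6 rose with RNA amount. Of 16 with a window but no core 3 rose, and of 11 with no window 4 rose. Of all genes tested, with or without a core, 4.52% rose. The median change was 0.38 with a core and 0.29 without, and the median level 118 and 65.9 TPM. The 11 genes with no window had changes from -0.03 in Dhx58 to 1.32 in Iigp1, and their medians are not given. The difference between these sets was not tested.

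Chromatin RNA can hold introns that are not yet, or never, removed. The retained-intron share is the percent of a gene's transcript counts that was assigned to transcripts annotated as retaining an intron, for genes with at least 50 counts. Of the 41 genes 24 have such a transcript, and their median share was 24.4%, beside 26.3% over 6732 genes. A share above 50% was found in 5 of the 24, and in 25.5% of all such genes. The median thus lay near that of all such genes, while single genes ran from 0.292% to 80.1%.

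As shares of counts, the largest were those of Sp110, Zbp1, Xaf1, Ifi44 and Cmpk2. As shares of TPM the order changed to Sp110 (74.8%), Trim21 (64.0%), Parp14 (58.9%), Cmpk2 (58.4%) and Herc6 (57.8%), with Ifi44 at 42.8% and Xaf1 at 40.2%. Sp110, a nuclear body protein, had 77.8%, 77.5% and 84.8% at 250, 500 and 1000 ng (80.1 ± 4.11, SD, n = 3). Zbp1 had 78.5%, 76.4% and 79.3% and Xaf1, which binds the apoptosis inhibitor XIAP, 71.6%, 70.6% and 74.1%. Their libraries lie close together, and at 1000 ng each share was the highest of the 3. Ifi44 had 70.8%, 52.7% and 60.7% (61.4 ± 9.03), and Cmpk2 had 51.3%, 47.8% and 68.4% (55.9 ± 11.0). These were the widest spreads among the 24, along with Isg20. Cmpk2 and its neighbour Rsad2 differ in annotation here, since Rsad2 has no transcript of this type.

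At the low end, Trim30a had 0.349%, 0.187% and 0.339%, although it had 10149 counts in all. Mx2 had 1.68%, 1.26% and 3.98%, and Mx1 2.36%, 3.59% and 3.08%. Shares below 10% were found in 7 of the 24, which also include Daxx, Sp100, Eif2ak2 and Adar. As shares of TPM only Trim30a stayed below 10%, with 9.10%, and Adar had 50.4%. Sp100 and Sp110 are neighbours on chromosome 1 with starts 51171 nt apart. Their shares of counts were 7.51 ± 2.02% and 80.1 ± 4.11%, and their shares of TPM 29.8% and 74.8%. The share of counts was highest at 1000 ng in 17 of the 24, beside 54.1% of all such genes. The median share was 23.6%, 21.3% and 26.4% over the 24 genes, and 26.1%, 24.0% and 27.9% over all.

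**Figure D5:**
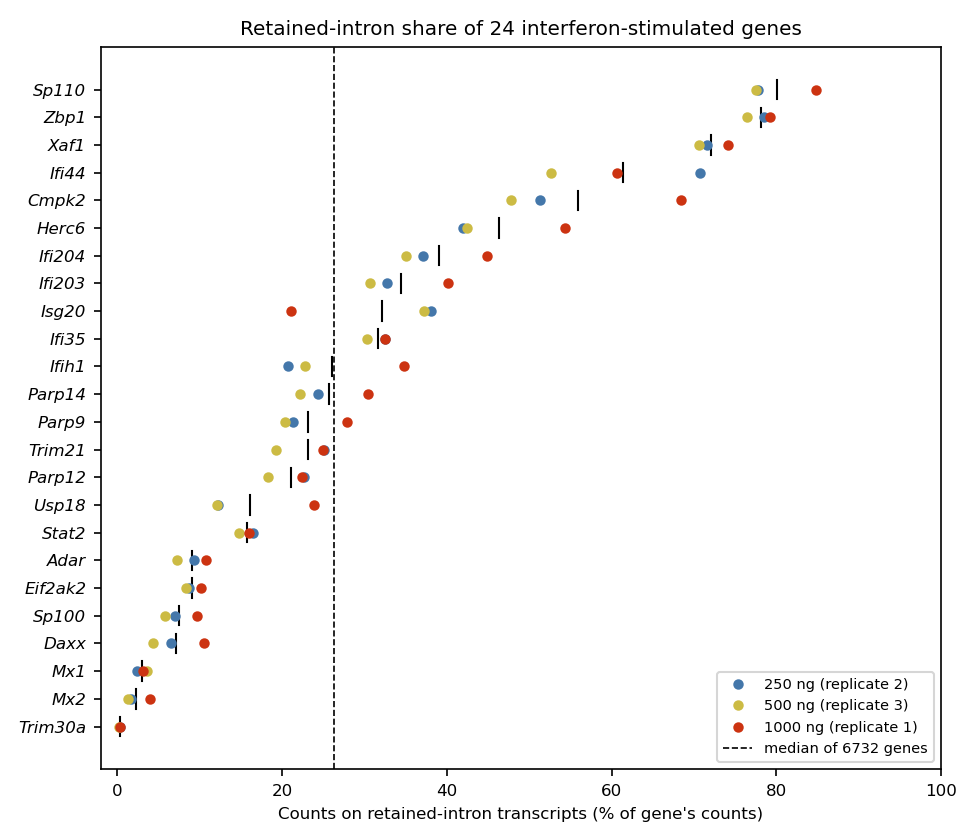
Percent of each gene's transcript counts on retained-intron transcripts, for the 24 genes that have one, with 1 point per library and a black tick at the mean. Values run from 0.292% in Trim30a to 80.1% in Sp110, on both sides of the median of 6732 genes (dashed line, 26.3%).

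A protein-coding transcript took the most counts in 31 of the 41 genes, a retained-intron transcript in 7, a transcript marked for nonsense-mediated decay in Mx1 and Ifi35, and a pseudogene transcript in Mx2. Besides the 5 genes with the largest shares, the 7 were Ifi203, with 34.5 ± 4.96% on Ifi203-207, and Isg20, with 32.1 ± 9.56% on Isg20-205. In both the leading transcript held a minority of the counts. A protein-coding Isg20 transcript had 31.2 ± 8.95% and was above Isg20-205 at 1000 ng (41.5% against 21.1%). In the kallisto-type table Isg20, Cmpk2 and Ifi44 had a protein-coding leading transcript. There Ifi35 was led by a retained-intron transcript (36.3%). Tor3a, among the 31 above, was led there by a decay-marked one (51.8%). Shares over all genes are not given for the types of leading transcripts. In Mx1 85.0% of counts lay on decay-marked transcripts and 11.7% on protein-coding ones. C57BL/6 mice are known to carry a defective Mx1 allele that lacks coding exons. In the annotation Mx2 is a polymorphic pseudogene, and Mx2-202 took 87.3%, 90.3% and 86.2% of its counts. The choice of transcript was less certain than the gene total. The kallisto-type table named the same leading transcript in 30 of 41 genes, gave Mx1-205 1.84% in place of 59.4%, and led with Mx1-203, also marked for decay. For gene totals the deposited posterior SD was at most 17.0 counts, and it exceeded 1% of the count in 1 gene.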

How the data were processed

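For each library the authors deposited gene and transcript tables with expected counts, TPM and posterior SDs under the column names RSEM writes, and a second transcript table with estimated counts and TPM under those of kallisto, per the file headers. The tables use mm10 and annotation M21, per the deposited readme files. No label or header names the aligner, its version, the strand setting or read filters.

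TPM were recomputed from expected counts over genes of at least 300 nt. Counts rounded to whole numbers were fitted against log2 RNA amount with edgeR 4.0.16 in R 4.3.3 (TMM, filterByExpr, quasi-likelihood F test, Benjamini-Hochberg over all 13993 genes). Other steps used Python 3.11.15, pandas 2.3.3 and numpy 2.4.6. Coordinates are GENCODE M21, on the same assembly as the RefSeq promoters.

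Genes, lists and tests were chosen with earlier results of these data known. Values are given for genes past the threshold, the 8 highest and 4 lowest levels, the 5 highest and 3 lowest retained-intron shares, the 5 widest spreads, neighbours and non-coding leading transcripts, others by group. Alternatives were DESeq2 1.42.0, RLE factors, other filters, the kallisto-type table, deposited TPM, CPM without length, pseudocounts, count minimums, shares of TPM, and leaving out ribosomal locus genes or a library. Floors cover counting error only. Values after ± are the SD over the libraries or the SE of the edgeR fit. 1 pathway gene outside the 41 is not reported here.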

Additional observations from a re-analysis of the deposited data

How the results depend on the processing

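The genes past the threshold numbered 8 of 41 with DESeq2 (370 of all genes), which gave 5 of the 41 no adjusted p. They numbered 5 with the kallisto-type counts (369 of all genes), against 13 (1032 of all genes) by edgeR. The counts of all genes take in both directions, by edgeR 633 higher and 399 lower of 13993 tested. Other settings can test a different number of genes, and no share of all genes is given for them. Other counts of the 41 were 14 with RLE factors (994 of all genes) and 12 without ribosomal locus genes (901 of all genes). With no count filter the count was 11 (1156 of all genes). Added after seeing the data were a filter that uses the design, with 9 (741), and genes of any length, with 13 (1101). Mx1, Trim30a and Zbp1 passed in neither DESeq2, the kallisto-type counts, the unfiltered fit nor the fit with the design filter, and Mx1 not without ribosomal locus genes. Herc6 and Slfn5 were also lost with DESeq2, and Herc6, Slfn5, Slfn8, Ifi44 and Parp14 with kallisto-type counts. Bst2 and Ifi35, never called, turned to -0.06 and -0.08 with kallisto-type counts, where the median change of the 41 was 0.29. Leaving out each library gave a median change of 0.29 to 0.35 with no test, since 2 libraries leave no residual degree of freedom, a median level of 66.6 to 97.1 TPM and a median retained-intron share of 22.0% to 26.3%. The median level was 33.4 with deposited TPM, scaled over all entries, and 66.2 as CPM without gene length. The median retained-intron share was 39.9% as a share of TPM, and the core followed by CT was held by 16.7% of the 30 genes with a window, against 0.303% of all genes. The cause of these differences was not tested. No paired analysis was possible because there is 1 group. Depth limits Isg20, Isg15 and Igtp most, with under 40 counts in each library.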
